A study of Homo sapiens with 6 samples.

Results

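Elastic fiber and microfibril genes encode elastin, the fibrillins, the fibulins and the microfibril-associated glycoproteins. The 10 genes were ELN, FBN1, FBN2, FBLN1, FBLN2, FBLN5, EFEMP1 (fibulin-3), EFEMP2 (fibulin-4), MFAP2 and MFAP5. They were found by their GENCODE symbols among the 58676 gene identifiers of a count table of MRC5 cells, a human lung fibroblast line; no threshold on their values was applied. All 10 were listed, and 9 reached the minimum of 10 counts summed over the libraries and were tested. In both groups, MRC5 cells were exposed for 24 h to conditioned media (CM) from ATIIER:KRASV12 cells, a human alveolar epithelial type II (ATII) line in which 4-hydroxytamoxifen (4-OHT) switches on a mutant RAS. In the control group the CM came from control ATIIER:KRASV12 cells (control ATII CM, n = 3). In the other group it came from the same line treated for 24 h with 4-OHT (4-OHT ATII CM, n = 3). Effects of any 4-OHT carried over in the CM and effects of RAS-induced secreted factors cannot be told apart in this design, and both cell types are represented by a single line. Polyadenylated RNA was sequenced, and the sources used here do not say whether the replicates were separate cultures, so p-values measure the spread between these libraries, which may be technical.

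Elastic fibers give the lung its recoil. Fibroblasts secrete tropoelastin, the product of ELN, which is laid down on a scaffold of microfibrils built from fibrillin-1 and fibrillin-2. Fibulins bridge tropoelastin to this scaffold and to the cells, microfibril-associated glycoproteins decorate it, and lysyl oxidases cross-link elastin into an insoluble core. Microfibrils also hold latent TGF-β through the latent TGF-β binding proteins.

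The libraries held between 17691849 and 26389449 counts, of which 0.309% to 0.357% fell on the 10 genes. Among 19072 genes tested by edgeR's quasi-likelihood test, 563 DEGs (2.95%) were higher and 527 (2.76%) lower in 4-OHT ATII CM at a Benjamini–Hochberg adjusted p under 0.05. The median size of change among the DEGs was 0.26 on the log2 scale. Levels are given in CPM, a gene's count relative to the library total after TMM scaling. On the second principal component control replicate 2 lay at −19.2, the other controls at 13.9 and 10.8 and the 4-OHT ATII CM libraries between −2.33 and −1.17. Markers fitted the fibroblast label: all 10 fibroblast markers were tested, with a summed level of 41100 to 44600 CPM in control ATII CM and 43000 to 44700 CPM in 4-OHT ATII CM. DCN, LUM, COL3A1 and PDGFRA rose among them and VIM fell. Epithelial markers summed to 91.3 to 97.2 CPM and 88.9 to 95.1 CPM, most of it KRT18 and KRT8, with no DEG among them. KRT18 had means of 53.5 and 51.8 CPM in control and 4-OHT ATII CM, and KRT8 of 32.5 and 33.7 CPM. NKX2-1 and KRT5 were at 0. Smooth muscle markers summed to 285 to 295 CPM and 279 to 288 CPM, with LMOD1 higher and SMTN lower. Immune markers summed to 0.796 to 1.12 CPM and 1.23 to 1.94 CPM with no DEG among them. Most of it was CD14 (log2 fold change 0.97, adjusted p = 0.0597). The immune marker PTPRC and the smooth muscle marker MYH11 each have a near-identical copy on 1 alternate sequence of the assembly, so their low counts are uncertain. Of the 5 endothelial markers 2 were tested; they summed to 120 to 138 CPM and 163 to 172 CPM, nearly all of it TEK, which rose (log2 fold change 0.37, adjusted p = 0.000162), while PECAM1 and CDH5 were at 0. The part of TEK-expressing cells in the results was not tested.

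Of the 9 elastic fiber and microfibril genes tested, 5 rose in 4-OHT ATII CM, none fell and 4 did not pass the test. At an unadjusted edgeR p under 0.05, 1 of the 9 was lower. Among all 19072 genes tested, 3306 were under that threshold in either direction. DESeq2 and limma-voom each called 0 of the 9 lower. Without control replicate 2, or without a filter on low counts, 2 genes (FBN1 and FBN2) were called lower. EFEMP1, FBLN1, FBLN5, MFAP2 and ELN were the genes that rose, by 10.7% to 19.9%. In bulk RNA a change in the share of cells of a type and a change in RNA per cell cannot be told apart. Among all genes tested 2.95% were called higher, and among the 5846 genes with a mean of at least 30 CPM 7.01% were. The 4 genes that did not pass were FBLN2, FBN1, FBN2 and EFEMP2. For 5 of the 9 the groups did not overlap, all with 4-OHT ATII CM higher, against 11.7% of all genes tested (10.4% had 4-OHT ATII CM lower, and 22.1% did not overlap in either direction). The median log2 fold change of the 9 genes was 0.16, compared with −0.002 over all genes tested. No alternative scaling changed the direction of any of the 9. The count of 5 depended on the method and on the libraries: it was 3 with DESeq2 and 3 with libraries scaled by their totals alone. It was 2 without control replicate 3, without 4-OHT replicate 2 or without 4-OHT replicate 3, 3 without control replicate 1, 4 without 4-OHT replicate 1 and 5 without control replicate 2.

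**Figure D1:**
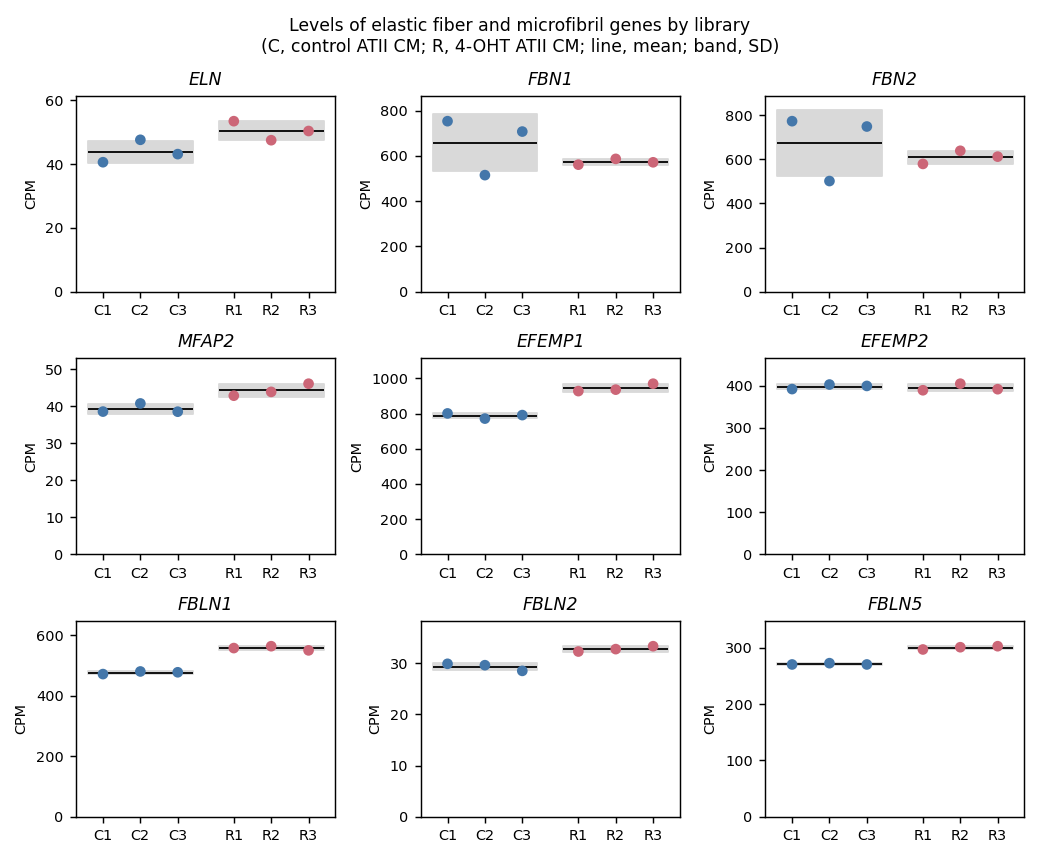
Levels of the 9 tested genes in each library, in CPM on linear axes that start at 0; points are libraries (C, control ATII CM; R, 4-OHT ATII CM), lines are group means and bands are SD (n = 3). FBLN1, FBLN2, FBLN5, EFEMP1 and MFAP2 do not overlap between groups, and FBN1 and FBN2 show control replicate 2 well below the other controls.

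ELN (ENSG00000049540, chr7:74027789-74069907 in GRCh38, plus strand) encodes tropoelastin, the monomer of the elastic core. Its levels were 40.6, 47.7 and 43.2 CPM in control ATII CM and 53.5, 47.5 and 50.4 CPM in 4-OHT ATII CM. The groups overlapped, since control replicate 2 lay slightly above 4-OHT replicate 2. The fitted difference was 15.4% (log2 fold change 0.21, SE 0.058, adjusted p = 0.0489). This call lay at the edge of the threshold: of 16 alternatives, 3 kept it, and the adjusted p ranged from 0.000385 to 0.221. It was lost with DESeq2 (adjusted p = 0.0568) and when any library other than control replicate 2 was left out (adjusted p = 0.0581 to 0.221). On its exons ELN shares 165 bases with the antisense gene ELN-AS1, which had at most 1 count in any library.

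FBN1 (ENSG00000166147, chr15:48408306-48645849, minus strand) encodes fibrillin-1, the main structural protein of microfibrils after birth. Its levels were 754, 515 and 708 CPM in control ATII CM and 562, 587 and 572 CPM in 4-OHT ATII CM. FBN2 (ENSG00000138829, chr5:128257909-128659185, minus strand) encodes fibrillin-2, best known from developing tissue. It stood at 773, 502 and 749 CPM in control ATII CM and at 579, 639 and 612 CPM in 4-OHT ATII CM. In both fibrillin genes control replicate 2 lay below all 3 of the 4-OHT ATII CM libraries while the other controls lay above them, so the groups overlapped.

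Neither fibrillin gene passed the test. The log2 fold change was −0.20 for FBN1 (95% interval, −0.38 to −0.03, adjusted p = 0.257) and −0.15 for FBN2 (−0.35 to 0.06, adjusted p = 0.54). Without control replicate 2 both were called lower, FBN1 by a log2 fold change of −0.35 (adjusted p = 3.82e-07) and FBN2 by −0.32 (adjusted p = 3.93e-06). Without control replicate 1 the log2 fold changes were −0.10 and −0.04 (adjusted p = 0.651 and 0.911), and without control replicate 3 they were −0.15 and −0.07 (adjusted p = 0.526 and 0.837). Both were also called lower when no gene was filtered out for low counts (adjusted p = 1.28e-06 and 0.00181). Over all 16 alternatives the adjusted p reached 0.651 for FBN1 and 0.911 for FBN2.

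Both fibrillin messages are long, with 16057 annotated exon bases in FBN1 and 13196 in FBN2, and long messages as a class differed between the control libraries. Among genes with a mean of at least 30 CPM, the 900 with more than 10000 exon bases had a median log2 deviation from their own 6-library mean of 0.05, −0.06 and 0.04 in control replicates 1 to 3 and of −0.01 in each 4-OHT ATII CM library. FBN1 deviated by 0.30, −0.24 and 0.21 in the controls and FBN2 by 0.28, −0.34 and 0.24, in the same directions and by larger amounts. After a trend on exon length and GC content was removed from each library, FBN1 still deviated by 0.22, −0.16 and 0.15 and FBN2 by 0.22, −0.27 and 0.19. With the trend removed the log2 fold change was −0.15 for FBN1 (adjusted p = 0.214) and −0.10 for FBN2 (adjusted p = 0.573). The part of message length in the fibrillin values was not otherwise tested.

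**Figure D2:**
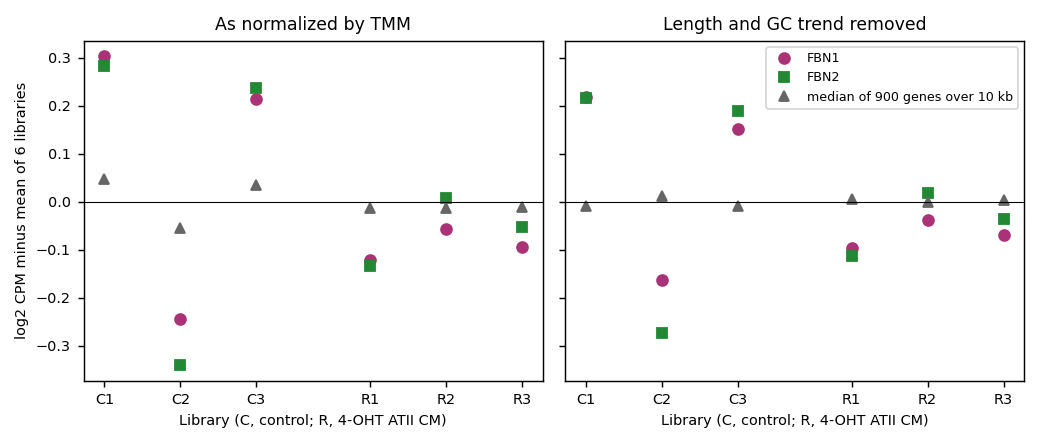
Log2 CPM of FBN1 and FBN2 in each library minus the mean of the 6 libraries, with the median of 900 genes that have more than 10000 exon bases (triangles), before (left) and after (right) a trend on length and GC content was removed; C, control ATII CM; R, 4-OHT ATII CM. Control replicate 2 is the lowest library for both fibrillin genes in both panels, and the 4-OHT ATII CM libraries lie between it and the other controls.

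MFAP2 (ENSG00000117122, chr1:16974502-16980835, minus strand) encodes MAGP-1, a small glycoprotein bound to fibrillin microfibrils. It was measured at 38.5, 40.7 and 38.5 CPM in control ATII CM and at 42.8, 43.8 and 46.0 CPM in 4-OHT ATII CM. The groups did not overlap, and MFAP2 rose by 13% (log2 fold change 0.18, SE 0.0471, adjusted p = 0.0385). Of 16 alternatives 8 kept the call. It was lost with DESeq2 (adjusted p = 0.0973) and without control replicate 1, control replicate 3, 4-OHT replicate 2 or 4-OHT replicate 3 (adjusted p = 0.124, 0.167, 0.104 and 0.234). MFAP5 (ENSG00000197614, chr12:8637346-8662888, minus strand), its relative MAGP-2, had 1, 1 and 0 counts in control ATII CM and 0 in each 4-OHT ATII CM library. A count of 0 allows a level of up to 3 counts, or 0.114 to 0.137 CPM in those libraries, by counting error only, so no difference in MFAP5 could be measured at this depth.

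EFEMP1 (ENSG00000115380, chr2:55865967-55924139, minus strand) encodes fibulin-3, a secreted glycoprotein of the short fibulins. It had the smallest p among the 9 genes, ranking 54 of 19072. Its levels were 801, 772 and 791 CPM in control ATII CM and 928, 936 and 970 CPM in 4-OHT ATII CM. All 3 of the 4-OHT ATII CM libraries lay above all controls. EFEMP1 rose by 19.9% (log2 fold change 0.26, SE 0.0293, adjusted p = 6.68e-05), from 788 ± 15 to 945 ± 22.3 CPM (SD, n = 3), and all 16 alternatives called it higher. EFEMP2 (ENSG00000172638, chr11:65866441-65873592, minus strand) encodes fibulin-4, which brings lysyl oxidase to tropoelastin and is needed for elastic fibers to form. It was measured at 392, 403 and 400 CPM in control ATII CM and at 389, 405 and 392 CPM in 4-OHT ATII CM. Its groups overlapped, with a log2 fold change of −0.01 and a 95% interval of −0.07 to 0.05 (adjusted p = 0.921). No alternative called EFEMP2.

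FBLN5 (ENSG00000140092, chr14:91869412-91947987, minus strand) encodes fibulin-5, which binds both tropoelastin and cell-surface integrins. It was measured at 270.2, 272.5 and 270.2 CPM in control ATII CM and at 296.8, 300.8 and 302.6 CPM in 4-OHT ATII CM. FBLN5 rose by 10.7% (log2 fold change 0.15, SE 0.0308, adjusted p = 0.00891), the groups being apart. The call was kept in 13 of 16 alternatives. It was lost without control replicate 3 (adjusted p = 0.056), 4-OHT replicate 2 (0.0554) or 4-OHT replicate 3 (0.0763).

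FBLN1 (ENSG00000077942, chr22:45502238-45601135, plus strand) encodes fibulin-1, found in elastic fibers and basement membranes. It was measured at 472, 481 and 478 CPM in control ATII CM and at 558, 564 and 551 CPM in 4-OHT ATII CM. FBLN1 rose by 16.9%, from 477 ± 4.46 to 558 ± 6.92 CPM (log2 fold change 0.23, SE 0.0289, adjusted p = 0.000216), and every one of the 16 alternatives called it. FBLN2 (ENSG00000163520, chr3:13549131-13638422, plus strand) encodes fibulin-2, which also binds fibrillin-1 and tropoelastin. It was measured at 29.9, 29.6 and 28.5 CPM in control ATII CM and at 32.3, 32.8 and 33.3 CPM in 4-OHT ATII CM. Its groups did not overlap, but the difference of 11.9% did not pass the test (log2 fold change 0.16, SE 0.0499, adjusted p = 0.075). It passed in 1 of 16 alternatives, that with the trend on length and GC content removed (adjusted p = 0.047).

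Promoter sequence was at hand for 7 of the 10 genes, as 10 windows from RefSeq (GRCh38.p14) that reach from 250 bases before to 50 after a transcript start. EFEMP1, ELN and MFAP5 had no entry. Windows of FBLN1 and FBLN5, fibulin genes that rose, and of FBN1, which did not pass the test, are printed. FBLN5 has 2 windows, and the one upstream is shown. Capitals mark GC boxes (GGGCGG, or CCGCCC on the other strand), a motif bound by Sp1-family factors. The windows are chr22:45502633-45502932 on the plus strand, chr14:91947645-91947944 on the minus strand and chr15:48644921-48645220 on the minus strand.
FBLN1: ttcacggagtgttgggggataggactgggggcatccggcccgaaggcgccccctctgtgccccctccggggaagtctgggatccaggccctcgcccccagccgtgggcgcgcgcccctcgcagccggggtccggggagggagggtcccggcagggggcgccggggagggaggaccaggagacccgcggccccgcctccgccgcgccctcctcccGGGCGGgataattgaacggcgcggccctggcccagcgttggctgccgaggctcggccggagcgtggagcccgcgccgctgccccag
FBLN5: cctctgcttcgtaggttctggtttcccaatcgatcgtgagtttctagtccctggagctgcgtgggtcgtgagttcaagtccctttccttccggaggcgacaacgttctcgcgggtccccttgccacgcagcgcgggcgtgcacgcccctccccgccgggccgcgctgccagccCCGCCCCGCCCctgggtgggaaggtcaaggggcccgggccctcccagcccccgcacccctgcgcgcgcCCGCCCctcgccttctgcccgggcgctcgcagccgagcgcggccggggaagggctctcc
FBN1: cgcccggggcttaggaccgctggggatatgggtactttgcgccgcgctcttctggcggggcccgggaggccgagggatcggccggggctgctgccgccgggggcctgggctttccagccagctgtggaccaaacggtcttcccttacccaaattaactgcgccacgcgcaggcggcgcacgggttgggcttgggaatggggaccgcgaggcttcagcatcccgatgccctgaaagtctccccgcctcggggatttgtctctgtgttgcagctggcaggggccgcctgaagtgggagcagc
The FBLN1 window had 1 GC box and a GC content of 78.0%. The FBLN5 window shown had 3, of which 2 share a base, and a GC content of 73.0%. The other FBLN5 window (chr14:91946983-91947282) had 1 GC box, a TATAAA match and a GC content of 47.3%. The FBN1 window had no GC box at a GC content of 68.3%. Among the other genes that did not pass the test, the windows held 6 GC boxes for EFEMP2, 7 and 0 for FBLN2 and 4 for FBN2. The windows of MFAP2, which rose, held 4 and 0. The median over all 35116 windows was 58.7%. A GC box lay in 7 of the 10 windows of these genes, against 45.0% of all windows. On either strand, TATAAA lay in 1 window of these genes (11.5% of all), CCAAT in 3 (34.6%), the AP-1 element TGACTCA in 1 (4.95%) and CACCTG in 1 (20.6%). The AP-1 element was in the more upstream of the MFAP2 windows. These matches describe the letters only.

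Per kilobase of annotated exon sequence, EFEMP1 had the highest level of the 10 genes, at a mean of 219 CPM per kb over the 6 libraries (195 to 245). EFEMP2 at 73.5 CPM per kb and FBLN1 at 71 CPM per kb followed. Their order differed between the groups: in control ATII CM EFEMP2 (73.8 ± 1.03 CPM per kb) was above FBLN1 (65.5 ± 0.612) in all 3 libraries, and in 4-OHT ATII CM FBLN1 (76.6 ± 0.95) was above EFEMP2 (73.3 ± 1.56) in all 3. FBLN5 at 57.4 and FBN2 at 48.7 CPM per kb overlapped in control ATII CM (54.5 ± 0.261 and 51.1 ± 11.4 CPM per kb), where FBN2 was above FBLN5 in replicates 1 and 3 and below it in replicate 2. In 4-OHT ATII CM FBLN5 (60.3 ± 0.595) was above FBN2 (46.2 ± 2.26) in all 3 libraries. FBN1 lay at 38.4 CPM per kb, within the range of FBN2 but below it in 6 of 6 libraries. MFAP2 at 14.3 CPM per kb stood apart from ELN at 7.21 and FBLN2 at 6.46 CPM per kb, and ELN was above FBLN2 in 5 of 6 libraries. Tropoelastin was thus among the low messages of the set per length, and MFAP5 was at the bottom. Annotated exon length includes exons that these cells may not use.

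Ratios within a library need no scaling between libraries. The log2 ratio of EFEMP1 to EFEMP2 counts was 1.03, 0.937 and 0.986 in the control libraries, against 1.253, 1.209 and 1.308 with 4-OHT ATII CM. The groups did not overlap, the ratio being 20.8% higher in 4-OHT ATII CM (exact two-sided permutation p = 0.1, the smallest that 3 libraries against 3 allow, and 0.25 adjusted over the 5 ratios). Per length, EFEMP1 stood at 2.70 times EFEMP2 in control ATII CM and at 3.25 times in 4-OHT ATII CM. The log2 ratio of FBN1 to FBN2 was −0.04, 0.04 and −0.08 in the control libraries, against −0.04, −0.12 and −0.10 with 4-OHT ATII CM (exact p = 0.2, adjusted 0.25). It thus varied little across libraries in which FBN1 itself ranged from 515 to 754 CPM. The difference in the log2 ratio was 0.06 for FBLN1 to FBLN2 (exact p = 0.2, adjusted 0.25) and 0.39 for ELN to FBN1 (exact p = 0.3, adjusted 0.3), with overlapping groups in both. The latter was 0.62 without control replicate 2 and 0.23 without control replicate 1. The ratio of MFAP2 to MFAP5 was set by the added pseudocount and is not read.

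Messages of other proteins that take part in elastic fiber assembly moved in both directions. Of 29 such genes 24 were tested, and 2 rose and 4 fell, against 5.72% called in either direction among all genes tested. Their median log2 fold change was 0.04. The balance depended on the method: 7 rose and 4 fell with the trend on length and GC content removed, 6 rose and 3 fell without a filter on low counts, and 4 rose, LTBP3 and EMILIN1 among them, and 4 fell without control replicate 2. DCN, which encodes the proteoglycan decorin, rose by 25.7% from 3878 ± 5.38 to 4872 ± 139 CPM (log2 fold change 0.33, SE 0.0242, adjusted p = 2.66e-06). MFAP4 encodes a glycoprotein that binds tropoelastin and fibrillin. It was measured at 434, 442 and 428 CPM in control ATII CM and at 510, 508 and 522 CPM in 4-OHT ATII CM, a rise with a log2 fold change of 0.24 (adjusted p = 0.000163).

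The genes that fell were LTBP1, LTBP2, LOX and LOXL2, while other members of both families did not pass the test. Of these, named after their values were seen, LTBP3 had a log2 fold change of 0.12 (adjusted p = 0.0548, groups not overlapping, called higher in 6 of 16 alternatives) and LOXL3 of 0.13 (adjusted p = 0.153), whereas LOXL1 stood at −0.10 (adjusted p = 0.233) and LOXL4 at −0.02 (adjusted p = 0.902). LTBP1, whose product holds latent TGF-β on microfibrils, was measured at 731, 674 and 725 CPM in control ATII CM and at 585, 575 and 578 CPM in 4-OHT ATII CM. Its groups did not overlap, with a log2 fold change of −0.29 (SE 0.0335, adjusted p = 7.66e-05). LTBP2, which binds fibulin-5 rather than latent TGF-β, fell by 0.20 on the log2 scale (SE 0.0349, adjusted p = 0.0026), from 385, 355 and 372 CPM to 328, 322 and 318 CPM. LOX, the lysyl oxidase that cross-links tropoelastin, stood at 444, 423 and 444 CPM against 395, 385 and 385 CPM, a fall of 0.17 on the log2 scale (SE 0.032, adjusted p = 0.00427). LOXL2, a relative of LOX, fell by 0.10 (adjusted p = 0.0356) and was called in 9 of 16 alternatives, whereas DCN, MFAP4, LTBP1, LTBP2 and LOX were called in all 16. LOXL2 was lost without control replicate 1 or 3 and without each 4-OHT ATII CM library. FKBP10, EMILIN1 and LTBP4, the most abundant that were not called, had log2 fold changes of −0.03, 0.07 and 0.10 (adjusted p = 0.707, 0.225 and 0.121). Of the untested genes, named after their values were seen, FBN3 was listed at 0 in all libraries, and HMCN2, ADAMTSL2, ADAMTSL3 and ADAMTS17 had under 10 counts in all.

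**Figure D3:**
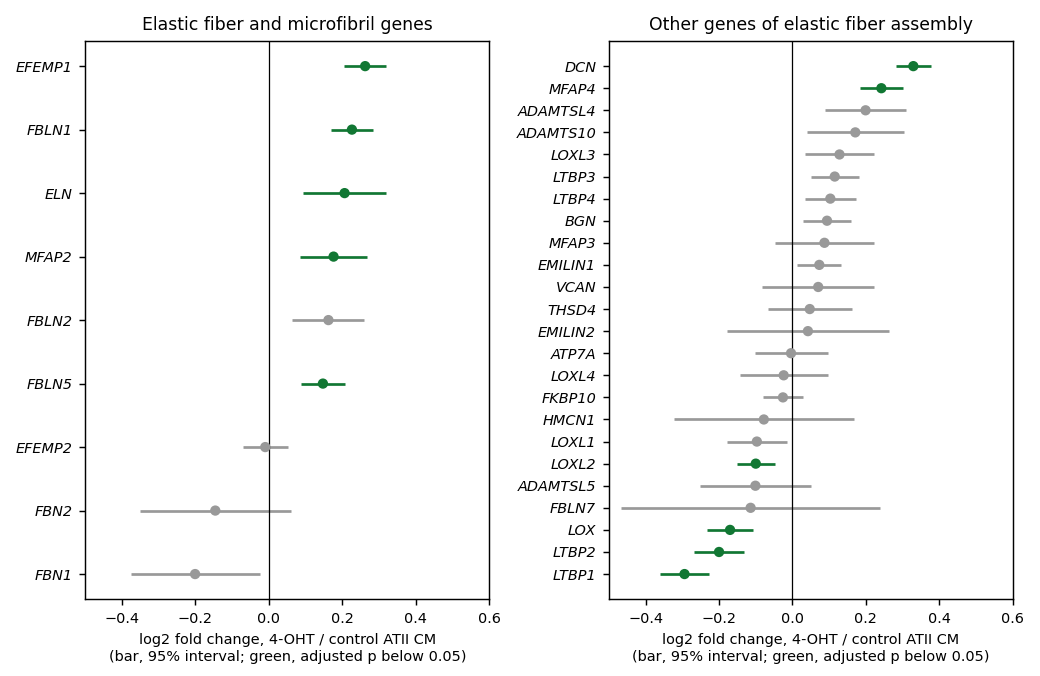
Log2 fold change of 4-OHT ATII CM over control ATII CM for the 9 tested elastic fiber and microfibril genes (left) and 24 other genes of elastic fiber assembly (right); bars are 95% intervals, and green marks an adjusted p under 0.05 in edgeR's quasi-likelihood test. On the left 5 genes are called, all to the right of 0; on the right DCN and MFAP4 are called higher and LTBP1, LTBP2, LOX and LOXL2 lower.

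Of 21 genes that break down elastin or inhibit its breakdown, 13 were tested. With edgeR 1 rose and none fell, against 2.95% and 2.76% of all genes tested. Among genes with a mean of at least 30 CPM, 7.01% were higher and 5.13% lower. At an unadjusted edgeR p under 0.05, 1 of the 13 was lower, where 3306 of all 19072 genes tested were under that threshold in either direction. DESeq2 and limma-voom each called 1 of the 13 lower. MMP2, a gelatinase that also cleaves elastin, rose from 1413 ± 24.6 to 1551 ± 6.53 CPM (log2 fold change 0.14, SE 0.0256, adjusted p = 0.00454). The call was lost without 4-OHT replicate 3 (adjusted p = 0.0501), and without control replicate 2 MMP2, CTSB and CTSK were called higher and TIMP2 lower, CTSK being named after its values were seen. CTSB, TIMP2 and MMP14 did not pass, at log2 fold changes of 0.08, −0.09 and 0.08 (adjusted p = 0.103, 0.0886 and 0.123). The remaining 8, among them the macrophage elastase MMP12 and the elastase inhibitor SERPINA1, had too few counts to be tested. SERPINA1 and PRTN3 each have a near-identical copy on 1 alternate sequence of the assembly, so their low counts are uncertain.

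Of 12 genes for integrins and other receptors that contact elastic fibers, 10 were tested. Of these 3 rose and 1 fell, against 2.95% and 2.76% of all genes tested. Among genes with a mean of at least 30 CPM, 7.01% were higher and 5.13% lower. ITGB3, a partner of the αv integrin that binds fibrillin and fibulin-5, rose from 25.0 ± 0.483 to 32.6 ± 0.873 CPM (log2 fold change 0.38, adjusted p = 0.000336). ITGA8, an integrin α chain of mesenchymal cells, rose from 140 ± 8.52 to 170 ± 3.12 CPM (log2 fold change 0.28, adjusted p = 0.000786). ITGB8, of the αvβ8 integrin, rose from 18.2 ± 1.94 to 22.2 ± 0.443 CPM (log2 fold change 0.28, adjusted p = 0.0379), and ITGB5, another partner of αv, fell from 248 ± 5.79 to 227 ± 4.21 CPM (log2 fold change −0.12, adjusted p = 0.0399). ITGB3 and ITGA8 were called in all 16 alternatives, ITGB8 in 10 and ITGB5 in 8. ITGB8 was lost without control replicate 1, without control replicate 2 and without each 4-OHT ATII CM library, and ITGB5 without control replicate 1, without control replicate 3 and without each 4-OHT ATII CM library. ITGB1, ITGA5 and ITGAV, the most abundant, did not pass, at log2 fold changes of 0.06, −0.06 and 0.11 (adjusted p = 0.164, 0.286 and 0.0988). ITGB6 and NEU1 were listed at 0 in every library. NEU1 has near-identical copies on 7 alternate sequences, so its 0 is uncertain.

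**Figure D4:**
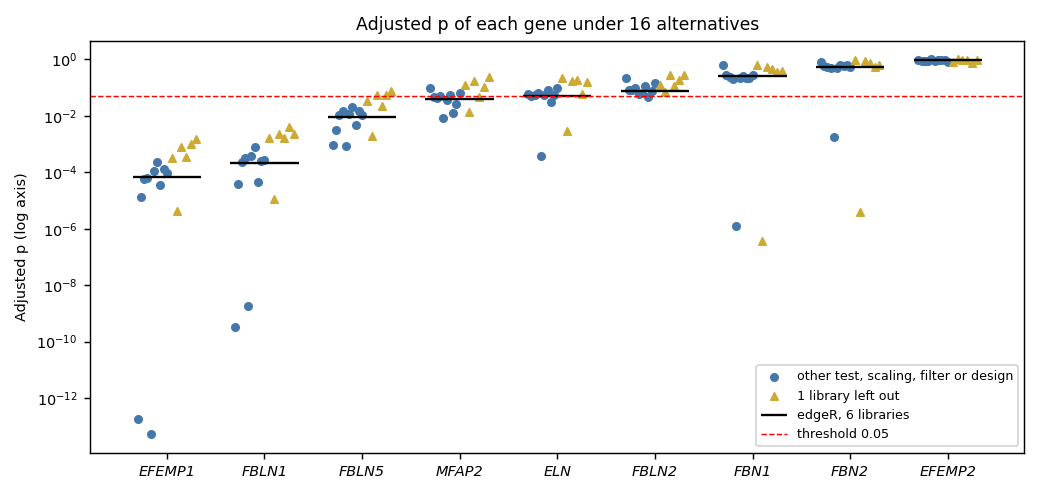
Adjusted p of each tested elastic fiber and microfibril gene on a log axis, with the value from all 6 libraries (black line), other tests, scalings, filters or designs (circles) and 1 library left out (triangles); the dashed line marks 0.05. EFEMP1 and FBLN1 lie below the line under all 16 alternatives, ELN and MFAP2 scatter about it, and FBN1 and FBN2 fall below it in 2 alternatives each.

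Across the 6 libraries, the genes outside these lists whose log2 CPM most resembled EFEMP1 among 9138 genes were CYB561, MBOAT2 and FSTL1. Their Pearson r was 0.9997, 0.9975 and 0.9974, and 268 genes had r over 0.95. Those most like ELN were TPM1, SLC44A2 and CNIH4, with r of 0.9871, 0.9856 and 0.9842. The libraries compared share the 2 groups and their depth, so these values are descriptions over 6 points. CYB561, MBOAT2 and FSTL1 were themselves DEGs (adjusted p = 0.0234, 0.00133 and 0.000672), while TPM1, SLC44A2 and CNIH4 did not pass (adjusted p = 0.213, 0.593 and 0.281).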

How the data were processed

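The authors deposited raw counts per gene for 6 MRC5 libraries. Per the labels and the study's methods, reads were trimmed with Trim Galore, mapped to GRCh38 with HISAT2 2.1.0 and counted with featureCounts 1.6.5; the annotation release and strand setting are not given in the sources used here. Identifiers were matched to GENCODE symbols; 45 identifiers listed for X and Y were summed. Groups came from the sample labels. Genes with at least 10 counts in all (19072) were tested with edgeR 4.0.16 (TMM, quasi-likelihood, group only, Benjamini–Hochberg over all genes, threshold 0.05); SE was derived from the F statistic. Alternatives were DESeq2 1.42.0, limma-voom (limma 3.58.1), other scalings and filters, a replicate block, a length and GC trend, thinning and each library left out. Scripts were tested on simulated data. Ratios added a pseudocount of 0.5. The genes and lists were chosen with earlier results of these data known. The naming rule covered all 10 members, called genes of the other lists, at most 3 abundant uncalled genes in each, and the 3 genes most like each of EFEMP1 and ELN. Further genes of the lists are named outside this rule, among them genes chosen after their values were seen. Counting intervals cover counting error only.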

Additional observations from a re-analysis of the deposited data

How the results depend on the processing

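Of 102 counts of calls recomputed under alternatives, 72 stayed within 1.5 times the main count, and of 144 fold changes of the 9 genes 114 kept their direction and call. The count of DEGs was 1090, but 92 with a 1.5-fold minimum and 533 to 1530 with a library left out, the lowest without 4-OHT replicate 2 (615 without 4-OHT replicate 3, 663 without control replicate 3) and the highest without control replicate 2. Of the elastic fiber and microfibril genes, 5 were called higher, against 3 with DESeq2, 3 with total library sizes, 3 after thinning to the smallest total, 0 with a 1.5-fold minimum and 2 to 5 with a library left out. The count called lower was 0, but 2 without a filter and 0 to 2 with a library left out. Assembly partners called numbered 6, against 11 with the length and GC trend removed (adding LTBP3, LTBP4, EMILIN1, ADAMTSL4 and BGN, all higher, named after their values were seen), 0 with a 1.5-fold minimum and 5 to 8 with a library left out. Elastin breakdown genes called numbered 1, against 2 with DESeq2, 3 with limma-voom, 3 without a filter, 3 with the trend removed, 0 with a 1.5-fold minimum and 0 to 4 with a library left out. Cell contact genes called numbered 4, against 2 after thinning, 0 with a 1.5-fold minimum and 2 to 3 with a library left out, 2 without each 4-OHT ATII CM library in turn. EFEMP2 ranged from −0.03 to 0.005 on the log2 scale with a library left out, changing sign without 4-OHT replicate 1 (adjusted p = 0.969), and the difference between groups in the log2 ratio of MFAP2 to MFAP5 was 0.59 with a pseudocount of 5, against 1.473. The cause of these shifts was not tested. A left-out library leaves fewer samples, and without control replicate 2 the count of DEGs was 1530, against 1090. A fold minimum removes small changes by definition.

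No pairing by replicate number was seen: deviations of same-numbered libraries correlated at −0.007, −0.105 and −0.099, and no library correlated best with its own number. With 3 libraries in a group and control replicate 2 apart from the other controls, these correlations cannot exclude a pairing. With the replicate block 985 genes were called, and 3 elastic fiber and microfibril genes were higher (ELN and MFAP2 lost, adjusted p = 0.0815 and 0.0561); with the block and the trend removed, 2 elastin breakdown genes were called. The depth of 17691849 to 26389449 counts allowed no comparison for MFAP5.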

Other observations

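Control replicate 2 was low for several other long messages as well as for the fibrillins. Among 5846 genes with a mean of at least 30 CPM, the log2 CPM of control replicate 2 minus the mean of the other controls was −0.60 for FBN2 (rank 3 from the lowest) and −0.50 for FBN1 (rank 20), against a median of 0.006 and a lower 5th percentile of −0.20. The lowest gene, CD99 (−2.93), is not a long message (4912 exon bases). Genes near FBN2 in this ranking, chosen after their values were seen, were SMG1 (−0.63, 25988 exon bases), EP400 (−0.59, 18705), FAT1 (−0.59, 16177), KMT2D (−0.58, 20485) and DYNC1H1 (−0.58, 36852). FAT1 and FBN2 are secreted or surface proteins, while SMG1, EP400 and KMT2D act in the nucleus or on RNA. The other elastic fiber genes lay between −0.05 (EFEMP1) and 0.18 (ELN), ELN ranking 5765.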
